A study of Mus musculus with 95 samples.

Results

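Kidneys of 8 pristane-SNF1 mice and 10 untreated SNF1 mice at week 12 were compared across all genes of the array, out of 95 kidneys in the series. The mice were chosen by their sample titles, and their number in the title names each mouse here. SNF1 mice are the female offspring of SWR and NZB parents and develop lupus spontaneously with age. The pristane mice were injected into the peritoneum at 9 weeks of age with pristane, a hydrocarbon oil, and the untreated controls were of the same age and were left untreated. The study counts weeks from the pristane injection, so week 12 is the time since then and not the age of the mice. The labels do not say which of the study's independent experiments a mouse came from, so the part of the experiment in any difference was not tested. The lupus-prone background is shared by both groups, and it limits the untreated mice as controls because they can fall ill on their own. Untreated mouse 10 stood apart from the other 9 untreated mice, so the tests were run with all 18 mice and with the 17 mice that remain without it. Some values are given for 17 mice alone, and these leave out untreated mouse 10. The mean of its interferon-stimulated genes lay within the pristane range and that of its macrophage markers above it, against its label, and a label exchange and disease in an untreated mouse cannot be told apart here.

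In lupus nephritis, immune complexes settle in the glomeruli and activate complement and Fc receptors. Type I interferon, made in response to nucleic acids, binds its receptor and turns on a large set of interferon-stimulated genes through the transcription factor ISGF3. Monocytes, macrophages and lymphocytes then enter the interstitium, and tubular injury and scarring follow as the kidney fails.

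Levels are log2 values normalized by RMA, so a difference of 1 is a 2-fold difference. Differences are pristane minus untreated on that log2 scale, and the error after ± is the standard error unless SD is named. At week 12 the array medians lay between 4.23 and 4.57, and 19.7% of all values lay at the floor of 2.21, where a rise can only be a lower bound. The number of arrays limits the precision. Untreated mouse 10 had the lowest median correlation with the other week 12 arrays, at 0.9819, and the highest array median. Xist lay between 11.4 and 11.8 on every week 12 array. A gene was called where limma gave an adjusted p below 0.05 and the groups differed by more than 2-fold. List members were taken to rise or fall once the adjusted p was below 0.05, at any size of change. A gene's level is that of its brightest probe set, judged on the mean of all 95 arrays.

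With all 18 mice, the kidney at week 12 differed in few genes. The 9 called genes were all higher in pristane kidneys: Ifit1, Oas1g, Oas2, Usp18, Rtp4 and Ifi44, which are induced by interferon, the monocyte chemokine Ccl12, the neutrophil and monocyte protein S100a9, and Fabp1, a fatty acid binding protein. Ifit1, Oas2, Usp18 and Rtp4 are the 4 that belong to the list of interferon-stimulated genes. Of 17097 genes named by the array's annotation, 0.0468% were called (0.02% of probe sets), and Ifi44 came in through a name given only by the study's supplementary file. At an unadjusted p under 0.05 there were 2781 of 45037 probe sets, 2000 higher and 781 lower. Over the annotated genes that was 6.46% higher and 1.6% lower. Without untreated mouse 10 the call reached 213 genes, of which 211 were higher and 2 lower. Those counts take any called probe set and include supplementary names. By the representative probe set, 177 of the annotated genes (1.04%) were higher and 2 (0.0117%) lower. Over probe sets, 268 (0.595%) were higher. At an unadjusted p under 0.05, 3681 probe sets were higher and 768 lower with 17 mice, or 12% and 1.74% of the annotated genes. All 9 probe sets called with 18 mice were also called with 17.

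Promoter sequence from RefSeq is shown for 4 of these 9 genes, to set interferon-stimulated genes with a match to the interferon-stimulated response element beside called genes without one. Each run holds the 250 bases before the start of the gene in GRCm38.p6, written 5′ to 3′ on the gene's strand. Capitals mark GAAANNGAAA, the core of the element, or TTTCNNTTTC, the same core on the other strand.
Ifit1 (chr19:34640639-34640888, plus strand): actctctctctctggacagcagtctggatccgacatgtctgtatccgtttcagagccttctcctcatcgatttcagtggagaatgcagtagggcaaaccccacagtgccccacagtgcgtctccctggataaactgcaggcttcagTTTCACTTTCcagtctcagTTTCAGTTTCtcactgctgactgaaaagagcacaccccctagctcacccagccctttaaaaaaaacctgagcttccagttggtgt
Oas1g (chr5:120887614-120887863, minus strand): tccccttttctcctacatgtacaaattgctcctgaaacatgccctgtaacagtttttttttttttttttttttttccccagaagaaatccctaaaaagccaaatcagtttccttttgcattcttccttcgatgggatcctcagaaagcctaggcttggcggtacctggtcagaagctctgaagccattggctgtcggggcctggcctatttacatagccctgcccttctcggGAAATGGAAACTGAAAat
Ifi44 (chr3:151749911-151750160, minus strand): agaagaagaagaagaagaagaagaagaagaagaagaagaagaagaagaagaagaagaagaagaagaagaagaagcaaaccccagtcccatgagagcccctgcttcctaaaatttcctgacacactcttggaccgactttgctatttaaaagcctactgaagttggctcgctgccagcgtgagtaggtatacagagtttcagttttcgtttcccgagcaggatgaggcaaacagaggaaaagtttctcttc
S100a9 (chr3:90695722-90695971, minus strand): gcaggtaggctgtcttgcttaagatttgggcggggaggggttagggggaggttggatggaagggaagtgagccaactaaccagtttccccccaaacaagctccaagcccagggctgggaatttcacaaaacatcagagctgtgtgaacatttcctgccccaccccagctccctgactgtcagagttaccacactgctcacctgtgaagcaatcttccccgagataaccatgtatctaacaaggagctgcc
Ifit1 held 2 matches on the other strand, which began 104 and 85 bases before the start. Oas1g held 2 matches that overlapped each other and began 18 and 12 bases before the start, while Ifi44 and S100a9 held none in these windows. Of the 9 called genes, 6 had a promoter in the table, and 2 of those 6 held the core within 250 bases before to 50 after the start. Usp18, Rtp4 and Oas2 were not matched. Among the 192 genes represented by a probe set called higher with 17 mice, 144 had a promoter and 29 held the core (20.1%), against 496 of 13749 array genes (3.61%) and 3.44% of all 32851 promoters. The 29 included Ifit3, Oas3, Cxcl10, Gbp2, Gbp3, Gbp7, Irgm1, Ifih1 and Trim30a, but also Fbn1, Tgfbi, Ctss, Aif1, Cybb and Fcgr4. Outside the list of interferon-stimulated genes, 24 of 132 such genes with a promoter held the core (18.2%). A match is a description of the letters and not evidence of binding.

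S100a9, Oas1g and Ifi44 did not overlap between the groups and kept their call whichever mouse was left out. S100a9, which forms calprotectin with S100a8, had 6.02 as the lowest, 6.70 as the median and 7.47 as the highest log2 level in pristane kidneys, against 4.04, 4.12 and 4.63 in untreated mice 1 to 9 and 4.37 in untreated mouse 10. The groups did not overlap, and the log2 fold change was 2.43 ± 0.19 (standard error, adjusted p = 2.44e-05) with 18 mice and 2.45 with 17 mice. Oas1g, a member of the 2′-5′-oligoadenylate synthetase family that senses double-stranded RNA, had 6.51, 7.21 and 7.53 in pristane kidneys, against 4.06, 4.70 and 5.08 in untreated mice 1 to 9 and 6.33 in untreated mouse 10. Untreated mouse 10 thus lay just under the lowest pristane mouse. The log2 fold change was 2.28 ± 0.245 (adjusted p = 0.00126) with 18 mice and 2.44 with 17 mice. Ifi44 had 7.48, 7.88 and 8.24 in pristane kidneys, against 5.75, 6.34 and 6.86 in untreated mice 1 to 9 and 7.36 in untreated mouse 10, with a log2 fold change of 1.41 (adjusted p = 0.00817) with 18 mice. These 3 genes passed in each of the 18 fits that left out 1 mouse. The other 6 called genes passed in 3 or 4 of those 18 fits, with adjusted p-values up to 0.151.

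**Figure D1:**
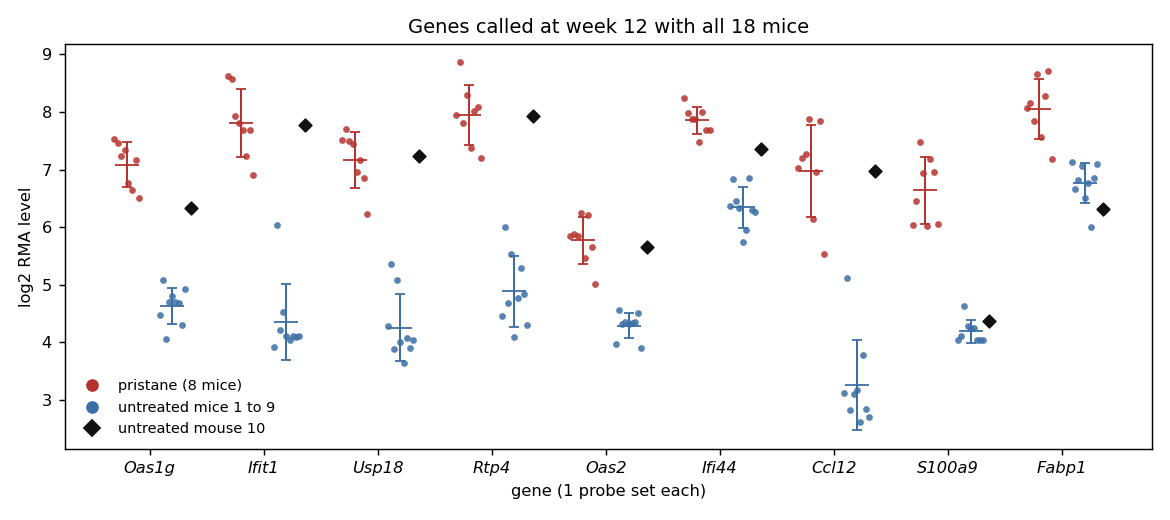
Log2 RMA level of the 9 genes called with all 18 mice, with pristane mice in red, untreated mice 1 to 9 in blue and untreated mouse 10 as a black diamond. Bars give the mean and SD of the 8 pristane mice and of the 9 untreated mice. Untreated mouse 10 lies among the pristane mice for Ifit1, Usp18, Rtp4, Oas2 and Ccl12 and among the untreated mice for S100a9 and Fabp1.

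The other called interferon genes rose with untreated mouse 10 inside the pristane range. Ifit1, which binds foreign RNA, had 6.91, 7.75 and 8.62 in pristane kidneys, against 3.93, 4.12 and 6.04 in untreated mice 1 to 9 and 7.77 in untreated mouse 10. On the log2 scale Ifit1 differed by 3.11 ± 0.471 (adjusted p = 0.0344) with 18 mice and 3.45 ± 0.297 (adjusted p = 6.91e-05) with 17 mice, a 10.9-fold difference. Usp18, which removes ISG15 from proteins and dampens interferon receptor signalling, had 6.23, 7.31 and 7.71 in pristane kidneys, against 3.65, 4.04 and 5.36 in untreated mice 1 to 9 and 7.23 in untreated mouse 10. Rtp4 had a log2 fold change of 2.76 with 18 mice and 3.06 with 17 mice, and Oas2 one of 1.34 and 1.48. Ccl12, a ligand of the monocyte receptor Ccr2, had the largest fold change of any called gene. It had 5.54, 7.11 and 7.88 in pristane kidneys, against 2.62, 3.10 and 5.12 in untreated mice 1 to 9 and 6.97 in untreated mouse 10. The log2 fold change was 3.35 ± 0.544 (adjusted p = 0.0482) with 18 mice and 3.72 ± 0.377 (adjusted p = 0.000191) with 17 mice, a 13.2-fold difference.

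Fabp1 belonged to none of the immune lists. It had 7.19, 8.11 and 8.71 in pristane kidneys, against 6.01, 6.82 and 7.14 in untreated mice 1 to 9 and 6.31 in untreated mouse 10, so that the groups did not overlap. Fabp1 differed by 1.34 ± 0.205 (adjusted p = 0.0344) with 18 mice and 1.29 with 17 mice. Of the annotated genes, 6 (0.0351%) did not overlap between the groups with all 18 mice, all higher in pristane kidneys. The same held for Ifi44 by its supplementary name. Besides S100a9, Oas1g and Fabp1 the 6 were the receptor Eda2r, the RNA-activated kinase Eif2ak2 and Tmem106a, which were named after their values were seen. Eda2r averaged 4.81 ± 0.155 in pristane kidneys (SD, n = 8), against 3.99 ± 0.251 in untreated mice 1 to 9 and 4.62 in untreated mouse 10, with an adjusted p = 0.0344 with 18 mice.

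By count, though not by share with 17 mice, interferon-stimulated genes were the list with most members past the test. Of 29 measured members 4 rose with 18 mice, against 0.0526% of all annotated genes, and 23 rose with 17 mice, against 2.25%. The median log2 fold change of the list was 1.20 with 18 mice and 1.39 with 17 mice, while that of all genes was 0 and 0.01. The count of 4 became 2 without pristane mouse 5, 6 without pristane mouse 8 or untreated mouse 2, 23 without untreated mouse 10 and 0 without any other mouse. The Ifit1, Usp18, Rtp4 and Oas2 of the 18-mouse fit were joined by Oasl2, Oas3, Mx1, Irf7, Irf9, Stat2, Xaf1 and others. Irf7, the transcription factor that amplifies type I interferon, had 5.09, 5.91 and 7.75 in pristane kidneys, against 3.78, 4.35 and 4.65 in untreated mice 1 to 9 and 5.17 in untreated mouse 10. Irf7 differed by 1.77 (adjusted p = 0.053) with 18 mice and 1.86 (adjusted p = 0.00392) with 17 mice. Mx1 had 4.24, 5.60 and 6.24 in pristane kidneys, against 3.28, 3.47 and 3.87 in untreated mice 1 to 9 and 5.85 in untreated mouse 10. With 17 mice the groups did not overlap for 19 of the 29 members, against 0.45% of all annotated genes. Mx2, Ifi27l2a, Ifi35, Dhx58, Ddx60 and Epsti1 did not pass, and all 29 had a higher mean in pristane kidneys with 17 mice. Members of the Oas, Ifit, Gbp and H2 families resemble each other in sequence, so their probe sets can share signal.

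The interferon-inducible GTPases, which attack the membranes around intracellular microbes and answer mainly to interferon gamma, passed only without untreated mouse 10. None of 10 measured members passed with 18 mice, where 7 were higher at an unadjusted p under 0.05, against 6.46% of all genes. With 17 mice 9 rose, against 2.25%. The list median was 1.29 with 18 mice and 1.78 with 17 mice. Gbp10, the member of the wider family with the largest rise, had 8.13, 8.77 and 10.25 in pristane kidneys, against 5.23, 6.12 and 8.72 in untreated mice 1 to 9 and 12.54 in untreated mouse 10. Untreated mouse 10 was thus above every pristane mouse, and untreated mouse 2 was the highest of the others. Gbp10 differed by 2.17 ± 0.814 (adjusted p = 0.709) with 18 mice and 2.79 ± 0.447 (adjusted p = 0.00447) with 17 mice. Tgtp1, Iigp1, Ifi47 and Igtp, all GTPases of the IRG group, had log2 fold changes of 2.61, 2.36, 1.87 and 1.83 with 17 mice. In all 10 members untreated mouse 10 was above the pristane median, while it was so in 19 of the 29 interferon-stimulated genes. The same share over all genes was not counted, and this mouse had the highest array median.

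Among receptors for nucleic acids and inflammasome genes, 0 of 19 passed with 18 mice (7 higher and 1 lower at an unadjusted p under 0.05). With 17 mice 10 rose, against 2.25% of all genes, with a list median of 0.56. The count was 6 without untreated mouse 3. Ifi204, a member of the family that senses DNA, had 4.60, 5.22 and 6.06 in pristane kidneys, against 2.35, 2.81 and 3.76 in untreated mice 1 to 9 and 6.72 in untreated mouse 10. Ifi204 differed by 2.30 ± 0.241 (adjusted p = 0.000232) with 17 mice. Ddx58, which encodes the RNA sensor RIG-I, Ifih1, which encodes MDA5, and Casp1, the protease of the inflammasome, had log2 fold changes of 1.13, 1.32 and 0.86 with 17 mice. Sting1, the adaptor of DNA sensing, did not pass. It had 4.01, 4.57 and 5.99 in pristane kidneys, against 3.86, 3.96 and 4.18 in untreated mice 1 to 9 and 7.30 in untreated mouse 10, with a log2 fold change of 0.79 (adjusted p = 0.13) with 17 mice. For the DNA sensor Aim2, a probe set named only by the supplementary file gave a log2 fold change of 0.42 (adjusted p = 0.3) with 17 mice.

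Complement and Fc receptor genes passed only without untreated mouse 10. Of 15 complement genes 0 passed with 18 mice (11 higher at an unadjusted p under 0.05, against 6.46% of all genes). With 17 mice 10 rose, against 2.25%, with a list median of 1.12. The count was 6 without pristane mouse 2. C1qc, a chain of C1q, which binds immune complexes, had 5.98, 7.33 and 8.25 in pristane kidneys, against 4.28, 4.93 and 6.39 in untreated mice 1 to 9 and 9.20 in untreated mouse 10. C1qc differed by 2.23 ± 0.315 (adjusted p = 0.0021) with 17 mice and 1.81 ± 0.552 (adjusted p = 0.545) with 18 mice. C1qa, C1qb and the anaphylatoxin receptor C5ar1 rose by 2.15, 2.13 and 1.56 on the log2 scale with 17 mice. C4b, whose product is cleaved in the classical pathway, had a log2 fold change of 2.06 (adjusted p = 0.0582) with 17 mice and did not pass. Of 9 Fc gamma receptor genes, 0 passed with 18 mice (6 higher at an unadjusted p under 0.05, against 6.46% of all genes). With 17 mice 6 rose, against 2.25%, with a list median of 1.56. The activating receptor Fcgr4 had 5.10, 6.11 and 6.75 in pristane kidneys, against 3.10, 3.32 and 5.46 in untreated mice 1 to 9 and 8.34 in untreated mouse 10. Fcgr4 differed by 2.49 with 17 mice, and Tyrobp, Fcer1g and Fcgr1 by 2.21, 1.97 and 1.82.

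Antigen presentation genes also passed only without untreated mouse 10. Of 8 class II genes 5 rose with 17 mice, against 2.25% of all genes. With 18 mice 0 passed (5 higher at an unadjusted p under 0.05, against 6.46%). H2-Aa, the alpha chain of I-A, had 9.63, 10.62 and 11.35 in pristane kidneys, against 8.32, 8.75 and 10.31 in untreated mice 1 to 9 and 12.59 in untreated mouse 10. H2-Aa differed by 1.68 ± 0.287 (adjusted p = 0.00699) with 17 mice and 1.31 (adjusted p = 0.708) with 18 mice. H2-Ea, H2-Ab1 and H2-Eb1 rose by 1.79, 1.65 and 1.50 on the log2 scale with 17 mice, while Ciita, the class II transactivator, had a log2 fold change of -0.05. Of 7 class I genes 6 rose with 17 mice, among them H2-K1 and H2-Q4 and the transactivator Nlrc5, with log2 fold changes of 1.30, 1.53 and 2.08. Of 8 genes of the immunoproteasome and peptide loading 5 rose with 17 mice, with Psmb8, Psmb10 and Psmb9 at 1.32, 0.77 and 0.74. That count was 1 without pristane mouse 2 or 4 or untreated mouse 1 or 3, and 6 at most when a further mouse was left out.

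Of 20 macrophage and monocyte markers, 11 rose with 17 mice, against 2.25% of all genes. With 18 mice 0 passed (12 higher at an unadjusted p under 0.05, against 6.46%). In whole kidney, more cells of a type and more RNA per cell cannot be told apart. Adgre1, which encodes the macrophage marker F4/80, had 4.59, 6.20 and 6.50 in pristane kidneys, against 3.29, 3.37 and 5.20 in untreated mice 1 to 9 and 8.25 in untreated mouse 10. Adgre1 differed by 2.26 ± 0.305 (adjusted p = 0.00146) with 17 mice and 1.79 ± 0.588 (adjusted p = 0.622) with 18 mice. Ms4a7, the lysosomal protein Cd68 and the protease Ctss rose by 2.92, 2.36 and 2.36 on the log2 scale with 17 mice. Of 23 chemokines and receptors, Ccl12 rose with 18 mice and 10 rose with 17 mice, against 0.0526% and 2.25% of all genes. Ccl12 did not pass in the 18-mouse fits that left out 1 mouse, except those without pristane mouse 8 or untreated mouse 2 or 10. Cxcl13, which attracts B cells, had 6.49, 7.88 and 8.88 in pristane kidneys, against 4.57, 5.30 and 7.22 in untreated mice 1 to 9 and 8.41 in untreated mouse 10, with a log2 fold change of 2.27 (adjusted p = 0.00397) with 17 mice. Ccl8 and the interferon-induced Cxcl10 had log2 fold changes of 2.21 and 1.98. Of 12 leukocyte adhesion genes 5 rose with 17 mice, with Cd44, Itgb2 and Itga4 at 1.97, 1.89 and 1.62. The last count was 3 in most fits that left out a further mouse, among them those without pristane mouse 1 or untreated mouse 1.

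Few markers of other leukocytes passed. Of 11 neutrophil markers, S100a9 rose with 18 mice and S100a9 and S100a8 with 17 mice, or with 18 less pristane mouse 1 or 8. Of all genes 0.0526% rose with 18 mice and 2.25% with 17 mice. S100a8 had 3.62, 5.21 and 6.61 in pristane kidneys, against 2.77, 2.95 and 3.11 in untreated mice 1 to 9 and 4.22 in untreated mouse 10, and its adjusted p was 0.0723 with 18 mice and 0.00392 with 17 mice. The other 9 neutrophil markers did not pass, and those of neutrophil granules, Mpo, Elane, Camp, Ngp, Ltf and Mmp8, had log2 fold changes between -0.09 and 0.04. Slfn4, a myeloid gene induced by interferon, averaged 5.18 ± 1.39 in pristane kidneys (SD, n = 8), against 2.78 ± 0.454 in untreated mice 1 to 9 and 3.09 in untreated mouse 10, with an adjusted p = 0.0194 with 17 mice. Of 21 T and NK cell markers Cd8a alone passed with 17 mice, at a log2 fold change of 0.48 (adjusted p = 0.0262), where 2.25% of all genes rose. The list median was 0.04. At an unadjusted p under 0.05, 6 of the markers were higher and 0 lower, against 12% and 1.74% of all genes. The count of passing markers was 5 without untreated mouse 2 and 2 without pristane mouse 4 or 8. It was 0 without pristane mouse 1 or 7 or untreated mouse 3, 6, 7 or 8. Of 14 B cell markers and 8 immunoglobulin and plasma cell genes 0 passed in either set of mice. With 17 mice 3 of the B cell markers and 2 of the plasma cell genes were higher at an unadjusted p under 0.05, against 12% of all genes. Jchain, which joins IgM and IgA chains, had 10.29, 11.85 and 12.48 in pristane kidneys, against 8.59, 10.12 and 11.82 in untreated mice 1 to 9 and 8.87 in untreated mouse 10. Jchain differed by 1.62 (adjusted p = 0.0689) with 17 mice.

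**Figure D2:**
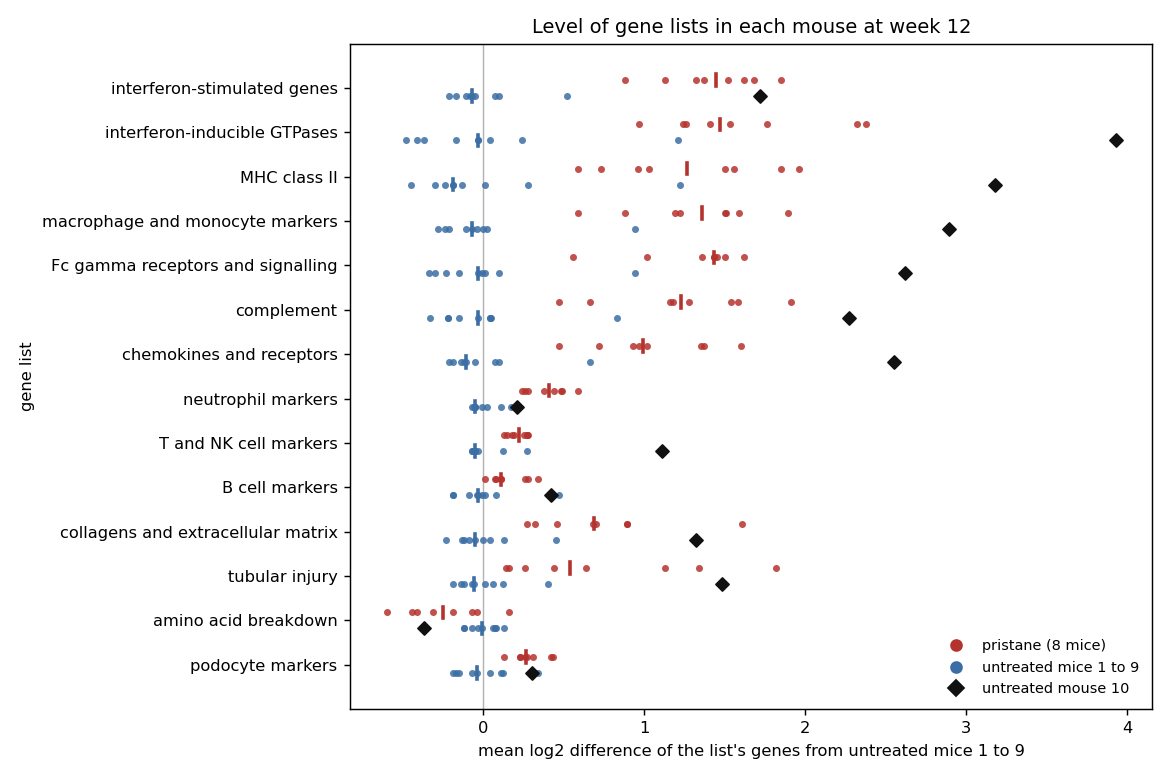
Level of 14 gene lists in each mouse at week 12, as the mean log2 difference of a list's genes from untreated mice 1 to 9. Pristane mice are red, untreated mice 1 to 9 blue and untreated mouse 10 a black diamond, and vertical ticks are medians of the 8 and of the 9 mice. Untreated mouse 10 lies at 3.93 for the interferon-inducible GTPases, above every pristane mouse, and at 1.72 for the interferon-stimulated genes, inside the pristane range.

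Untreated mouse 10 lay within the pristane range for the interferon-stimulated list and above that range in most other immune lists. Averaged over the members as a difference from untreated mice 1 to 9, the interferon-stimulated list lay between 0.88 and 1.85 in pristane mice, between -0.21 and 0.52 in untreated mice 1 to 9, and at 1.72 in untreated mouse 10. The macrophage list lay between 0.59 and 1.89 in pristane mice, between -0.28 and 0.94 in untreated mice 1 to 9, and at 2.89 in untreated mouse 10. The T and NK cell list lay between 0.13 and 0.28 in pristane mice and between -0.07 and 0.27 in untreated mice 1 to 9, against 1.11 in untreated mouse 10. Neutrophil markers lay between 0.24 and 0.59 in pristane mice and at 0.21 in untreated mouse 10, but S100a9 and S100a8 carried this mean, since the list's median log2 fold change was 0 and 4 of its 11 members were above 0 with 17 mice. Of the 268 probe sets called higher with 17 mice, untreated mouse 10 was above the lowest pristane mouse in 260, above the pristane median in 242 and above every pristane mouse in 198. Over the 192 genes these represent, the median difference from untreated mice 1 to 9 was 1.53 for the pristane mean and 3.08 for untreated mouse 10. These are descriptions of 1 mouse, and what set it apart was not tested.

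**Figure D3:**
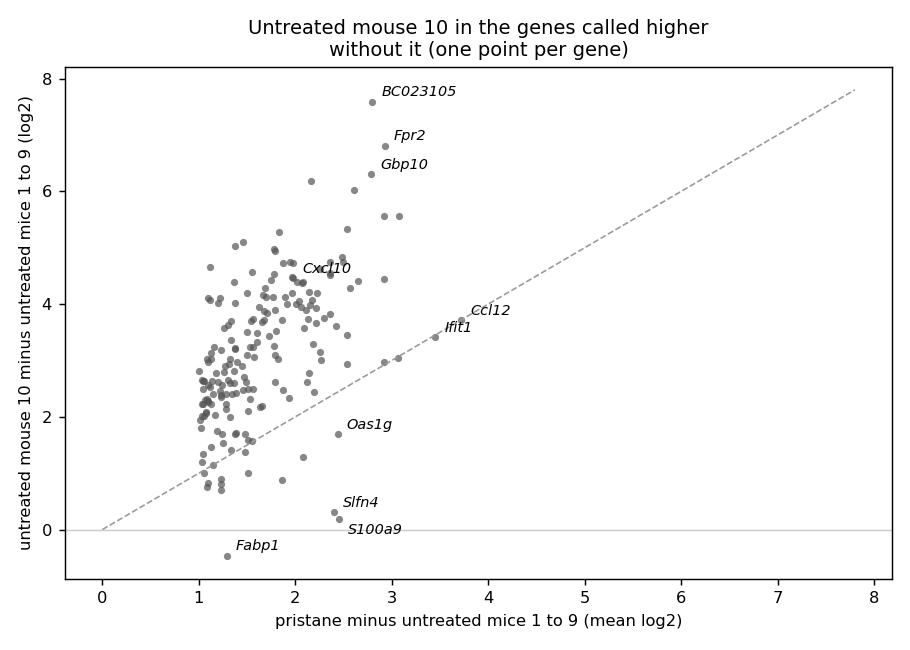
The 192 genes called higher with 17 mice, with the pristane mean (x axis) and untreated mouse 10 (y axis) each given as the log2 difference from untreated mice 1 to 9. The dashed line marks equal differences. Mouse 10 lies on or above the line in 175 genes, and S100a9, Slfn4 and Fabp1 lie near or below 0 on the y axis.

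The 6 largest rises among genes called with 17 mice and not with 18 were those of Clec4a3, Fpr2, Ms4a7, Ms4a6d, BC023105 and Gbp10, and untreated mouse 10 was above every pristane mouse in each. A gene called only without that mouse tends to be one where it is high. Its place in these 6 genes thus follows in part from how they were chosen. Fpr2, a formyl peptide receptor of phagocytes, had 5.44, 6.35 and 7.04 in pristane kidneys, against 2.34, 2.57 and 5.77 in untreated mice 1 to 9 and 10.19 in untreated mouse 10. Fpr2 differed by 2.93 ± 0.459 (adjusted p = 0.00397) with 17 mice and 2.24 ± 0.869 (adjusted p = 0.733) with 18 mice. Clec4a3, Ms4a6d and BC023105 had log2 fold changes of 3.08, 2.92 and 2.80 with 17 mice, and untreated mouse 10 had 9.33, 10.38 and 10.33 of these.

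Untreated mouse 2 was the highest of untreated mice 1 to 9 in most immune lists, with 0.94 for macrophage markers and 1.22 for class II genes. Markers of adjoining tissue also varied. Adrenal gland markers reached 2.12 in pristane mouse 4 and 2.65 in untreated mouse 2, with medians of -1.34 in pristane mice and -1.12 in untreated mice 1 to 9. Lymph node stroma markers reached 1.14 in untreated mouse 2 and 0.58 in untreated mouse 10, against at most 0.04 in pristane mice. Ccl19, their most abundant gene, was at 10.01 in untreated mouse 10, against 7.40 to 7.82 in pristane mice and 6.69 to 8.43 in untreated mice 1 to 9. The part of these tissues in the results was not tested. Without untreated mice 2 and 10 together 274 genes were called, and without pristane mouse 4 and untreated mouse 10 together 175 were.

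Pristane mice themselves varied, and the order of the mice recurred across genes. Of the 192 genes called higher, pristane mouse 8 was the lowest pristane mouse in 131 and mouse 5 in 39, while mouse 4 was the highest in 82 and mouse 2 in 38. Genes of tubular injury spread widely. Havcr1, which encodes the proximal tubule injury protein KIM-1, had 4.09, 5.95 and 8.77 in pristane kidneys, against 3.97, 4.15 and 4.92 in untreated mice 1 to 9 and 6.72 in untreated mouse 10. Pristane mouse 4 was the highest, and pristane mice 3, 5 and 8, at 4.09, 4.49 and 4.20, lay within the untreated range. The log2 fold change was 1.65 ± 0.54 (adjusted p = 0.206) with 17 mice and 1.4 ± 0.58 (adjusted p = 0.766) with 18 mice. Lcn2, which encodes the injury protein NGAL, had 4.89, 7.81 and 10.6 in pristane kidneys, against 4.20, 4.83 and 6.80 in untreated mice 1 to 9 and 9.83 in untreated mouse 10, with a log2 fold change of 2.95 (adjusted p = 0.0844) with 17 mice. Of 18 tubular injury genes 3 rose with 17 mice, against 2.25% of all genes, and 0 passed with 18 mice. The 3 were Il33, Anxa1 and Cp, at 1.45, 1.04 and 0.97 with 17 mice. When a further mouse was left out the count was 5 without pristane mouse 8, 1 in the absence of pristane mouse 6 or untreated mouse 4, 7 or 9, and 0 in the absence of pristane mouse 2 or 7 or untreated mouse 1, 3, 5 or 6.

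The acute phase gene Saa3 had 4.18, 5.56 and 9.91 in pristane kidneys, against 3.21, 3.43 and 4.34 in untreated mice 1 to 9 and 10.1 in untreated mouse 10. Its adjusted p was 0.0889 with 17 mice at a log2 fold change of 2.43. Of 18 acute phase and cytokine genes Il1rn and Osmr rose with 17 mice, against 2.25% of all genes. They rose by 1.73 and 1.36 on the log2 scale, and 5 members rose when pristane mouse 8 was also left out. Il1rn lay at 2.55 or 2.56 in each of untreated mice 1 to 9 and did not vary there, so that its 1.73 is a lower bound. Il1rn encodes the antagonist of the interleukin-1 receptor and Osmr the oncostatin M receptor. Saa1 lay at the floor in untreated mice 1 to 9.

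Some matrix genes rose. Of 28 collagen and extracellular matrix genes 0 passed with 18 mice (17 higher at an unadjusted p under 0.05, against 6.46% of all genes). With 17 mice 10 rose, against 2.25%, with a list median of 0.74. The count was 4 without pristane mouse 2 or 6 or untreated mouse 5, 5 without pristane mouse 7 or untreated mouse 3 or 9, and 6 without untreated mouse 6. Col3a1, a fibrillar collagen of scars, had 8.57, 9.92 and 11.17 in pristane kidneys, against 7.07, 7.83 and 8.85 in untreated mice 1 to 9 and 10.44 in untreated mouse 10. Its log2 fold change was 1.87 ± 0.322 (adjusted p = 0.00741) with 17 mice and 1.62 (adjusted p = 0.329) with 18 mice. Col1a1, Col8a1 and fibronectin, Fn1, had log2 fold changes of 1.79, 1.78 and 1.28 with 17 mice, and Col1a1 passed in 6 of 17 fits that left out a further mouse. The only probe set that the annotation names Col1a2 lay at or near the floor, and a brighter probe set named so by the supplementary file had a log2 fold change of 1.50 (adjusted p = 0.0127) with 17 mice. Pristane mouse 4 had the highest list level, at 1.61, and pristane mouse 5 the lowest, at 0.27, against -0.23 to 0.45 in untreated mice 1 to 9.

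Of 16 myofibroblast and TGF-beta genes 0 passed with 18 mice and 3 rose with 17 mice, against 2.25% of all genes. These were Tgfbi, S100a4 and Vim, at 1.69, 1.13 and 1.13 with 17 mice. The smooth muscle actin Acta2, which marks myofibroblasts, had 7.60, 8.60 and 10.28 in pristane kidneys, against 7.29, 8.00 and 8.50 in untreated mice 1 to 9 and 9.72 in untreated mouse 10, with an adjusted p = 0.437 with 17 mice. Of 15 genes of matrix turnover 1 rose with 17 mice, against 2.25% of all genes, and 0 passed with 18 mice. This was the protease Adam12, at a log2 fold change of 1.23 with 17 mice. It did not pass in most fits that left out a further mouse, such as that without pristane mouse 1. Timp1, an inhibitor of matrix proteases, had 3.51, 4.90 and 8.04 in pristane kidneys, against 3.05, 3.16 and 3.51 in untreated mice 1 to 9 and 8.02 in untreated mouse 10, and its adjusted p was 0.0844. Tnc and Fbn2 did not pass in either set of mice. Of 30 cell cycle genes Top2a and Ccna2 rose, by 1.86 and 1.56 with 17 mice, against 2.25% of all genes, and 18 were higher at an unadjusted p under 0.05, against 12%. That count of 2 was 8 without pristane mouse 8, 6 without untreated mouse 2, 4 without pristane mouse 1, and 0 or 1 without most other mice, among them pristane mice 2, 4, 6 and 7 at 0.

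**Figure D4:**
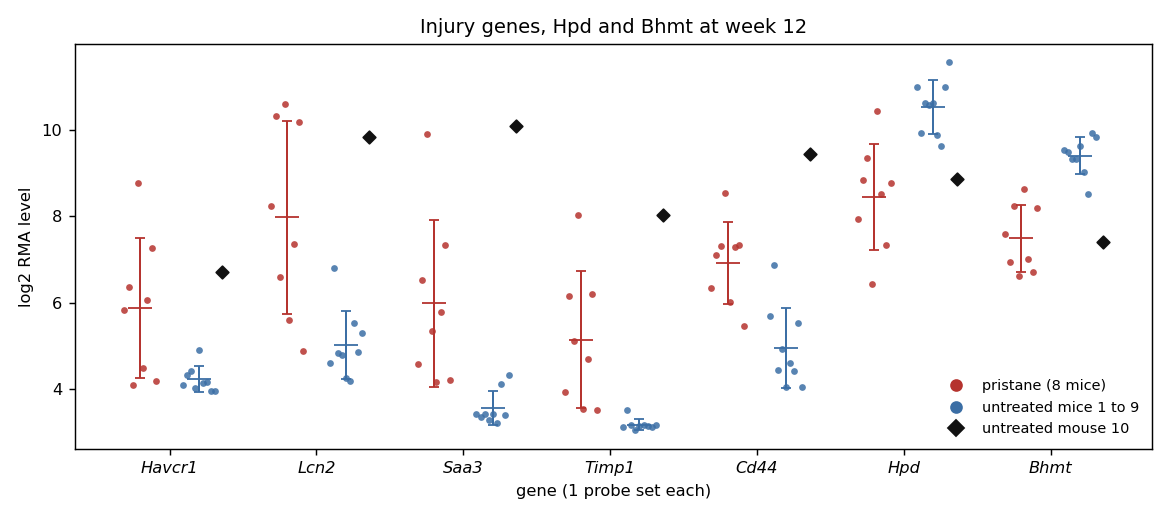
Log2 RMA level of 5 injury and matrix genes and of Hpd and Bhmt, with pristane mice in red, untreated mice 1 to 9 in blue and untreated mouse 10 as a black diamond. Bars give the mean and SD of the 8 and of the 9 mice. Havcr1, Lcn2, Saa3 and Timp1 spread widely among pristane mice, and Hpd and Bhmt are lower in most pristane mice and in untreated mouse 10.

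Falls were few. Bhmt, which methylates homocysteine with betaine, had 6.61, 7.29 and 8.64 in pristane kidneys, against 8.52, 9.48 and 9.92 in untreated mice 1 to 9 and 7.40 in untreated mouse 10. Its log2 fold change was -1.91 ± 0.296 (adjusted p = 0.00371) with 17 mice and -1.71 ± 0.356 (adjusted p = 0.169) with 18 mice. Hpd, the tyrosine-degrading 4-hydroxyphenylpyruvate dioxygenase, had 6.44, 8.65 and 10.43 in pristane kidneys, against 9.63, 10.61 and 11.56 in untreated mice 1 to 9 and 8.86 in untreated mouse 10. Pristane mouse 5 lay within the untreated range. The log2 fold change was -2.08 ± 0.455 (adjusted p = 0.0319) with 17 mice, and Hpd passed in 7 of 17 fits that left out a further mouse, with adjusted p-values up to 0.0756. It did not pass without pristane mouse 1, 2, 6 or 7 or untreated mouse 1, 3, 4, 5, 8 or 9. These were the only members of the 31 amino acid breakdown genes past the test, and the list median was -0.13. At an unadjusted p under 0.05, 11 of the 31 were lower and 1 higher with 17 mice, where 1.74% of all genes were lower. With 18 mice 9 were lower and 1 higher, where 1.6% of all genes were lower. At an adjusted p under 0.05 whatever the fold, 6 annotated genes (0.0351%) fell with 17 mice. Besides Bhmt and Hpd these were Gpx6, Gsta4, Bend5 and Ndrg2 at log2 fold changes of -0.72, -0.59, -0.57 and -0.44, chosen after their values were seen.

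Markers of kidney cell types mostly did not pass the test. Of 25 proximal tubule markers, only the organic anion transporter Slc22a6 passed with 17 mice, where 2.25% of all genes rose. Slc22a6 rose, with 10.92 to 11.18 in pristane kidneys, against 10.64 to 11.01 in untreated mice 1 to 9 and 10.82 in untreated mouse 10. The groups overlapped. Its log2 fold change was 0.25 (adjusted p = 0.016) with 17 mice and 0.25 (adjusted p = 0.127) with 18 mice. At an unadjusted p under 0.05 with 17 mice, 4 proximal tubule markers were higher and 3 lower, against 12% and 1.74% of all genes. The median of that list was -0.01. Of 11 podocyte markers 0 passed, 8 were higher at an unadjusted p under 0.05 with 17 mice, against 12% of all genes, and the list median was 0.25. Podxl, the most abundant of them, had 11.29, 11.52 and 11.63 in pristane kidneys, against 11.12, 11.24 and 11.42 in untreated mice 1 to 9 and 11.52 in untreated mouse 10. The most abundant members of other segments also did not pass. With 17 mice Umod of the thick ascending limb had a log2 fold change of 0.01, Wnk1 of the distal tubule -0.16, the water channel Aqp4 -0.72 and Tek of endothelium 0.04. The lists of fatty acid oxidation, oxidative phosphorylation, thick ascending limb, distal convoluted tubule, collecting duct and endothelium had 0 members past the test in either set of mice. Their median log2 fold changes with 17 mice were 0.07, -0.06, -0.16, -0.27, -0.14 and 0.20. Hadh, an enzyme of fatty acid oxidation, had -0.02. At an unadjusted p under 0.05 with 17 mice, 1.74% of all genes were lower and 12% higher. By that measure 3 of 7 distal convoluted tubule markers and 3 of 9 thick ascending limb markers were lower, and 0 higher. Of 15 collecting duct markers 3 were lower and 0 higher, and of 17 endothelial markers 6 were higher and 0 lower. Of 5 renin-angiotensin genes Agt, which encodes angiotensinogen, rose by 0.62 with 17 mice, and of 15 immediate early genes Egr2 rose by 1.70. With 18 mice they had 0.56 (adjusted p = 0.297) and 1.29 (adjusted p = 0.796) and did not pass. In the 17-mouse fits both were lost without pristane mouse 2, 6 or 7, among others. Of 6 dendritic cell markers Itgax, which encodes CD11c, rose by 0.82 with 17 mice and had 0.5 (adjusted p = 0.827) with 18 mice. With 17 mice less pristane mouse 5 or untreated mouse 4, 2 members rose. The lists of the unfolded protein response, oxidative stress, the circadian clock, glucocorticoid-responsive genes, sex chromosome genes and of adrenal gland, fat, skeletal muscle, urothelium, red blood cell and lymph node stroma markers had 0 members past the test in either set of mice.

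Of 12 measured genes that the study names for the pristane kidney, S100a9 rose with 18 mice, and S100a9, S100a8 and Ifih1 rose with 17 mice. Of all genes 0.0526% rose with 18 mice and 2.25% with 17 mice. The count of 1 was 2 without pristane mouse 1 or 8, and that of 3 was 5 without pristane mouse 8. The study's gene comparison used pristane kidneys of week 14 in the same series. With 17 mice the list median was 1.30. Col1a2 entered this list by its probe set at or near the floor. A brighter one, named by the supplementary file, had a log2 fold change of 1.50 (adjusted p = 0.0127) with 17 mice. The study used Ifih1 as an internal control, which rose in its other lupus model as well.

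Week 12 was also set against the weeks sampled before and after it, by a test of the difference of the pristane effects. At week 8 the median log2 fold change was 0.76 for interferon-stimulated genes, 0 for the interferon-inducible GTPases and -0.02 for class II genes. At week 12 it was 1.39, 1.78 and 1.45 without untreated mouse 10, and 1.2, 1.29 and 1.09 with all 18 mice. No gene differed between the effects of weeks 12 and 8 after adjustment, with 1570 probe sets at an unadjusted p under 0.05 with all mice and 2804 without untreated mouse 10. Gbp10 had log2 fold changes of 0.49 at week 8 and 2.79 at week 12 without mouse 10, a difference of 2.31 (adjusted p = 0.461). S100a9 had 3.55 at week 8 and 2.43 at week 12 with all mice, and the difference of -1.12 did not pass either (adjusted p = 1).

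At week 14 the same list medians were 2.12, 2.36 and 1.81. That of tubular injury was 1.49, against 0.51 at week 12 with 17 mice and 0.4 with 18 mice. Havcr1 differed by 4.79 on the log2 scale between pristane and untreated mice of week 14 and by 1.65 at week 12 with 17 mice. The difference of these effects was 3.14 (adjusted p = 0.125), and 3.39 (adjusted p = 0.0979) with all mice. Hpd had -4.84 at week 14 and -2.08 at week 12 with 17 mice, a difference of -2.76 (adjusted p = 0.187). With all mice its difference was -2.92 (adjusted p = 0.146). With all mice 0 genes differed between the effects of weeks 14 and 12 after adjustment, where the smallest adjusted p was 0.0703 and 7136 probe sets were at an unadjusted p under 0.05. Without untreated mouse 10 there were 3, and 2 of these (0.0117% of annotated genes) by their representative probe set. Lpxn, a focal adhesion protein of leukocytes, had log2 fold changes of 2.01 at week 14 and 0.08 at week 12, a difference of 1.93 (adjusted p = 0.0352). Its week 12 values lay at or near the floor, between 2.22 and 2.90 in pristane mice and between 2.21 and 2.79 in untreated mice 1 to 9, so that a change at week 12 may have gone unseen. The transcription factor Etv1 had -0.81 at week 14 and 0.27 at week 12, a difference of -1.09 (adjusted p = 0.0352). The third was C3ar1, through a probe set other than its representative.

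**Figure D5:**
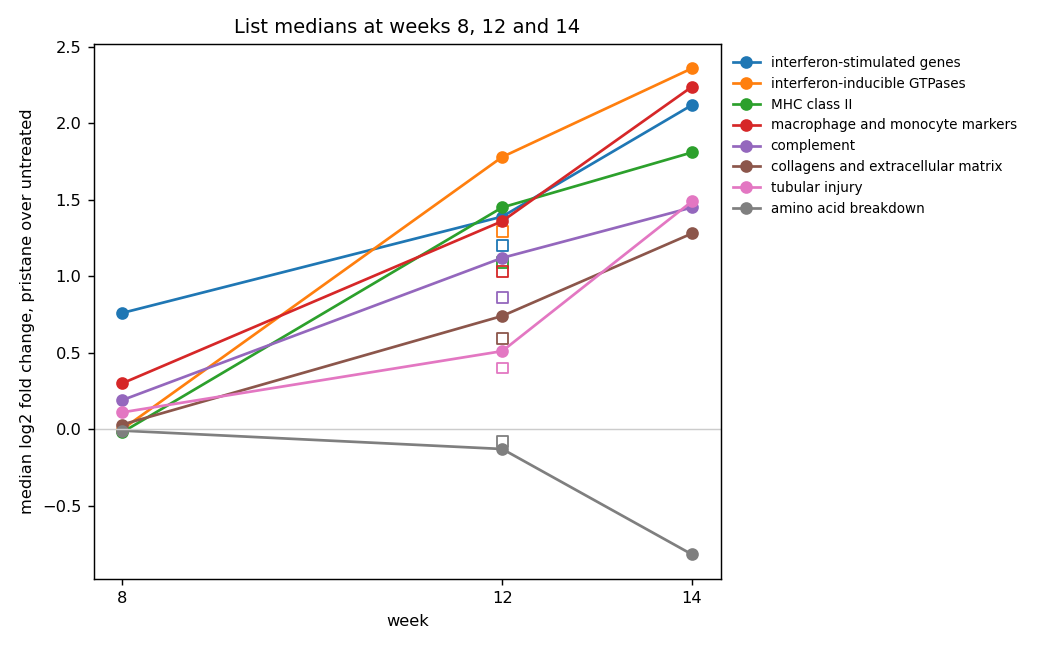
Median log2 fold change, pristane over untreated, of 8 gene lists at weeks 8, 12 and 14. Filled circles at week 12 leave out untreated mouse 10 and open squares use all 18 mice. At week 12 the interferon-inducible GTPases lie at 1.78 without that mouse and at 1.29 with it, and amino acid breakdown at -0.13 and -0.08.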

How the data were processed

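Kidney RNA was hybridised to Affymetrix HT MG-430 PM arrays, 1 kidney each. Per the submitters' processing notes, Partek and RMA were used, with versions not given in the sources used here. The log2 values that the authors deposited were taken as they are. Groups came from the sample titles. Identical arrays were looked for and 0 were found. The closest pair correlated at 0.9978. After 104 control probe sets were left out, 45037 were tested. Of these, 28898 had 1 symbol in the array's annotation, 551 had several and 15588 were not listed, and 504 were named only through the study's supplementary file. Probe sets of the last kind enter counts of called genes, not gene lists.

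Limma 3.58.1 in R 4.3.3 fitted the pristane and untreated mice of week 12 alone, with its empirical Bayes test, and p-values were adjusted by Benjamini-Hochberg across every tested probe set. Interaction contrasts used the 4 groups of weeks 12 and 8 or 14 and 12. Figures and promoter counts used Python 3.11.15. The members and the 45 gene lists, with 622 different genes measured, were chosen with earlier results of these data known. P-values measure the spread between the mice of these groups.

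Genes were named by rule: the 10 largest rises and falls among called genes in each set of mice, up to 4 passing members per list, the genes the study names for the pristane kidney, up to 5 per direction in each interaction, and the most abundant member of a list with none passing. All other genes in the text were chosen after their values were seen, most of them to account for list members. Simulated week 12 arrays of 45037 probe sets were tested in the same way. This found 96% of changes of 1.5 (log2) in both sets of mice, and 99% of changes of 3 with 18 mice. Called in error was 1 of the unchanged probe sets among 196 calls with 18 mice, and 0 with 17 mice. These shares hold for the simulated arrays. They were not split by level, so they cannot speak for probe sets near the floor. Nor do they extend to real genes in which untreated mouse 10 stood apart. With 18 mice 9 genes were called, but Fpr2, Ms4a6d and Gbp10 did not pass at log2 fold changes of 2.24, 2.36 and 2.17.

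The alternatives were median centring, quantile normalization, a filter at the 40th percentile, trended and robust empirical Bayes, weights per group and per mouse, all 11 groups in a single fit, no minimum fold, the replicate number as a block, an adjusted p of 0.01, a mean over probe sets and leaving out each mouse. Leaving out untreated mice 2 and 10 together was chosen after seeing the data. Replicate numbers were not used as pairs, since same-numbered mice of the 2 groups are different mice and the correlation of their deviations ranged from -0.57 to 0.19. Weeks other than 8, 12 and 14 were used only in the fit of all groups.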

Additional observations from a re-analysis of the deposited data

Results flagged for a closer look

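Within each week 12 group, the highest or the lowest mouse of 45 lists and of the named genes was set against the gap expected in a group of that size, as the share of the group's range. Of 148 sets of values 49 were flagged, of which 41 lay in untreated and 8 in pristane mice. For a single set, chance flags about 1 in 20. The sets come from the same mice, some lists share genes, and some genes were named by their call without untreated mouse 10. The flags are thus not independent, and their number cannot be set against that rate. Untreated mouse 10 was the highest in 37 and the lowest in 2.

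Among lists, the gap of untreated mouse 10 above the next mouse was 0.622 of the range for interferon-stimulated genes, 0.617 for interferon-inducible GTPases, 0.717 for nucleic acid sensors, 0.554 for complement, 0.568 for Fc gamma receptors, 0.685 for chemokines, 0.658 for leukocyte adhesion, 0.729 for acute phase genes, 0.588 for class I, 0.683 for the immunoproteasome, 0.54 for class II and 0.615 for macrophage markers. It was 0.758 for dendritic cell markers, 0.712 for T and NK cell markers, 0.561 for matrix genes, 0.583 for myofibroblast genes, 0.538 for matrix turnover, 0.647 for tubular injury, 0.742 for the cell cycle and 0.843 for the genes the study names for the pristane kidney. Mouse 10 was the lowest, by 0.718 of the range for distal convoluted tubule markers and 0.5 for amino acid breakdown.

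Among genes, the gap of untreated mouse 10 was 0.503 for Rtp4, 0.522 for Usp18, 0.551 for Oas1g, 0.629 for Oas2, 0.523 for Clec4a3 and for Gbp10, 0.563 for Fpr2, 0.514 for Ms4a6d, 0.674 for BC023105, 0.907 for Sting1 and for Timp1, 0.766 for S100a8, 0.836 for Saa3, 0.502 for Acta2, 0.655 for Havcr1 and 0.473 for Aim2. For Saa1, where all other untreated mice lay at the floor, it was 1.

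Pristane mouse 4 was the highest pristane mouse by 0.537 of the range for matrix genes, 0.631 for myofibroblast genes, 0.569 for adrenal gland markers, 0.902 for Saa1 and 0.941 for Col1a2, a probe set at or near the floor. Pristane mouse 6 was the highest by 0.532 for the renin-angiotensin list, pristane mouse 1 by 0.577 for Fbn2, and pristane mouse 8 the lowest by 0.577 for Clec4a3. Untreated mouse 5 was the highest by 0.689 for skeletal muscle markers and 0.976 for Col1a2.

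The effects of weeks 14 and 12 differed, without untreated mouse 10, by 1.93 on the log2 scale for Lpxn and by -1.09 for Etv1, and neither passed with all mice.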

How the results depend on the processing

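With all 18 mice, the 9 called genes became 25 with median centring, 27 after the 40th percentile filter, 249 with a weight per mouse, 172 with all 11 groups in a single fit, 119 with the replicate block (mice 1 to 8 of each group, so without untreated mouse 10), 3 at an adjusted p under 0.01 and 14 with a mean over the probe sets of a gene. Leaving out 1 mouse gave 3 to 213 genes: 213 without untreated mouse 10, 15 without untreated mouse 2 or pristane mouse 8, 7 without pristane mouse 5, 4 without pristane mouse 1 and 3 without any other mouse. With 17 mice, the 213 genes became 119 with the replicate block, 467 with no minimum fold and 130 at an adjusted p under 0.01, and 166 to 274 when a further mouse was left out. The difference of effects between weeks 12 and 8 called 18 genes with a weight per mouse and 0 under the others run, which left out the mean over probe sets for both differences of effects. That between weeks 14 and 12 called 305 with the filter, 372 with a weight per group, 804 with a weight per mouse and 660 with all groups in a single fit. It called 0 to 702 when 1 mouse was left out, namely 702 and 578 when pristane mouse 2 or 1 of week 14 was absent, 3 and 2 when untreated mouse 10 or pristane mouse 1 of week 12 was absent, and 1 when untreated mouse 5 of week 14 was absent. With the replicate block it called 0. The cause of these changes was not tested.

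No named gene that passed in either setting changed sign. Quantile normalization moved list medians with 17 mice by at most 0.12, and no list with a median over 0.25 in size changed sign under it or under median centring. With 17 mice the count of risen interferon-stimulated genes stayed between 21 and 24 when a further mouse was left out. Under the replicate block it was 18, and 44 of 108 named genes passed.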
